A study of Mus musculus with 26 samples.

Results

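Fibroblasts and macrophages that had grown together in tumour-conditioned medium were compared gene by gene, to show which signals, receptors and proteases were listed at a high level in only one of the cell types. The genes described are those with a value in the fibroblast table and in the macrophage table, which were 11120 of 13650 genes listed for either. A further 1828 genes were listed for fibroblasts only and 702 for macrophages only. The account follows 619 ligands, receptors, proteases and protease inhibitors in 20 lists, of which 344 were listed for both cell types, 93 for fibroblasts only, 52 for macrophages only and 130 for neither.

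The groups at the centre were the mammary fibroblasts (n = 4) and the macrophages (n = 4) sorted from co-cultures kept in 4T1 CM. Used beside them were fibroblasts (n = 2) and macrophages (n = 4) mono-cultured in 4T1 CM, and co-cultured fibroblasts (n = 3) and macrophages (n = 3) in DMEM, the plain culture medium. 4T1 CM is medium conditioned by 4T1, a mouse mammary carcinoma line, and all cells came from BALB/c mice of 8 weeks and no allele is named in the labels. Fibroblasts were pooled from the normal mammary fat pads of 2 females per replicate, expanded on collagen I and depleted of cells bearing EpCAM or CD45. Macrophages were grown from bone marrow with L929-conditioned medium, a source of CSF1, so both cell types are cultured cells. After 7 days of co-culture, live cells negative for F4/80 and CD11b were sorted as fibroblasts and live cells positive for both as macrophages. The labels call the medium of macrophages kept alone cancer CM, taken here as 4T1 CM, and do not give their collection day. RNA was sequenced from its 3′ ends.

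Fibroblasts lay down and remodel the extracellular matrix and release growth factors and chemokines, while macrophages engulf debris, degrade it in lysosomes and sense microbes and complement. In tissues the pair is known to exchange survival signals: fibroblasts supply CSF1, which macrophages need to live, and macrophages supply platelet-derived growth factors, which drive fibroblasts to divide. Proteases and their inhibitors then decide how fast matrix and signals are cut.

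Both labels matched the markers of the cells. All 25 fibroblast markers were listed in fibroblasts, with a summed level of 44822 to 51046 CPM (reads of a gene scaled to equal library totals) in the co-cultures, and 24 of them summed to 1540 to 11349 CPM in co-cultured macrophages. Of 25 macrophage markers, 23 were listed in fibroblasts, at a summed 35.9 to 230 CPM, and all 25 summed to 38045 to 50886 CPM in co-cultured macrophages. Library totals were 3710780 to 4933176 reads in the co-cultured fibroblasts and 1434695 to 3229186 reads in the co-cultured macrophages. Markers of other cells were low in the co-cultured fibroblasts, where 10 of 10 endothelial markers summed to 146 to 227 CPM, 6 of 6 skeletal muscle markers to 34.0 to 108 CPM and 6 of 6 glial markers to 2.69 to 211 CPM; no lymphocyte marker was listed. In the co-cultured macrophages 1 of 6 neutrophil markers was listed, at 18.4 to 62.7 CPM, and 1 of 6 epithelial markers, at 17.0 to 36.2 CPM. The part of these other cells in the results was not tested.

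RNA of fibroblast markers was present in the sorted macrophages, and 1 library held much more of it than the others. The median fibroblast marker stood at 2.68%, 2.63%, 19.4% and 5.64% of its level in co-cultured fibroblasts in macrophage replicates 1, 2, 3 and 4, against 0% to 0.197% in mono-cultured macrophages. In the reverse direction the median macrophage marker stood at 0.0115% to 0.485% in co-cultured fibroblasts and at 0.166% to 0.197% in mono-cultured fibroblasts. In such bulk samples, fewer cells of a type and less RNA per cell cannot be told apart. The main counts of sides are given with and without macrophage replicate 3.

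**Figure D1:**
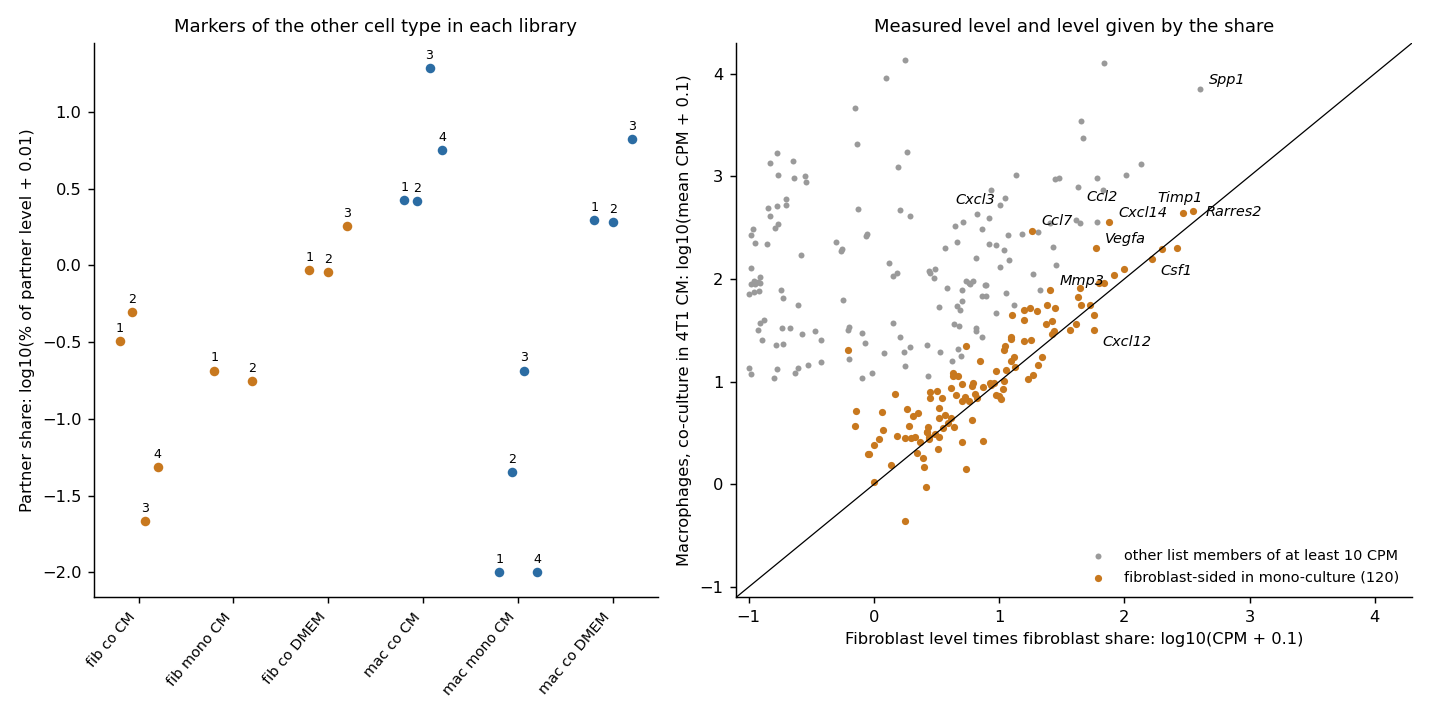
Left: the partner share of each library, the median over markers of the level in percent of the partner's mean level in the co-cultures of the same medium, as log10(% + 0.01), with replicate numbers; macrophage replicate 3 in 4T1 CM, at 19.4%, stands above the others. Right: for list members, the macrophage level in co-culture, as log10(mean CPM + 0.1), against the level that the mean fibroblast share of 7.59% alone would give. The 120 members that were fibroblast-sided in mono-culture lie around the line of equality, with Ccl7, Cxcl14 and Vegfa among those above it. Replicate 3 has the largest part in that mean share.

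Sides were set by size and overlap only. A gene is called fibroblast-sided or macrophage-sided when its mean on that side is at least 10 CPM and at least 8 times the mean on the other side, and when the 4 libraries of one side do not overlap the 4 of the other. The tables were normalized separately by the authors, so no test was run between the cell types and the sides are a description; all levels set across the cell types below share this limit. Libraries of the same replicate number are listed in the order 1 to 4.

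Of the 11120 shared genes, 657 (5.91%) were fibroblast-sided and 389 (3.50%) were macrophage-sided in the co-cultures, or 818 and 404 without macrophage replicate 3. Among the 344 list members with both values, 76 (22.1%) were fibroblast-sided, 64 (18.6%) macrophage-sided and 204 neither. Without macrophage replicate 3, 103 members were fibroblast-sided and 64 macrophage-sided. With a ratio limit of 16 in place of 8, 20 members were fibroblast-sided and 57 macrophage-sided, so the balance between the sides depended on the limit. The largest ratios over all shared genes belonged to Mgp (matrix Gla protein), Dpt (dermatopontin), Sfrp2, Ms4a4d and Sertad4 on the fibroblast side. The macrophage means of the last 4 were under the level of 3 reads. That of Mgp, 1.19 CPM, lay within the 0.929 to 2.09 CPM that 3 reads equal, and its fibroblast level was 305 ± 395 CPM (SD, n = 4). The order of these genes is thus not firm. On the macrophage side the largest ratios belonged to C3ar1, Ccr1, Nfam1, Clec4n and Tlr13. Their fibroblast means were all under 1 CPM, so this order is not firm either. Just inside the limit of 8 lay Ltbp2 (8.36) and Fgfr1 (8.37) for fibroblasts and Csf2ra (8.99) and Il15 (10.0) for macrophages; just outside lay Fzd2 (7.95) and C1s2 (7.66) for fibroblasts and Tnfrsf21 (6.94) and Itga4 (6.93) for macrophages.

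**Figure D2:**
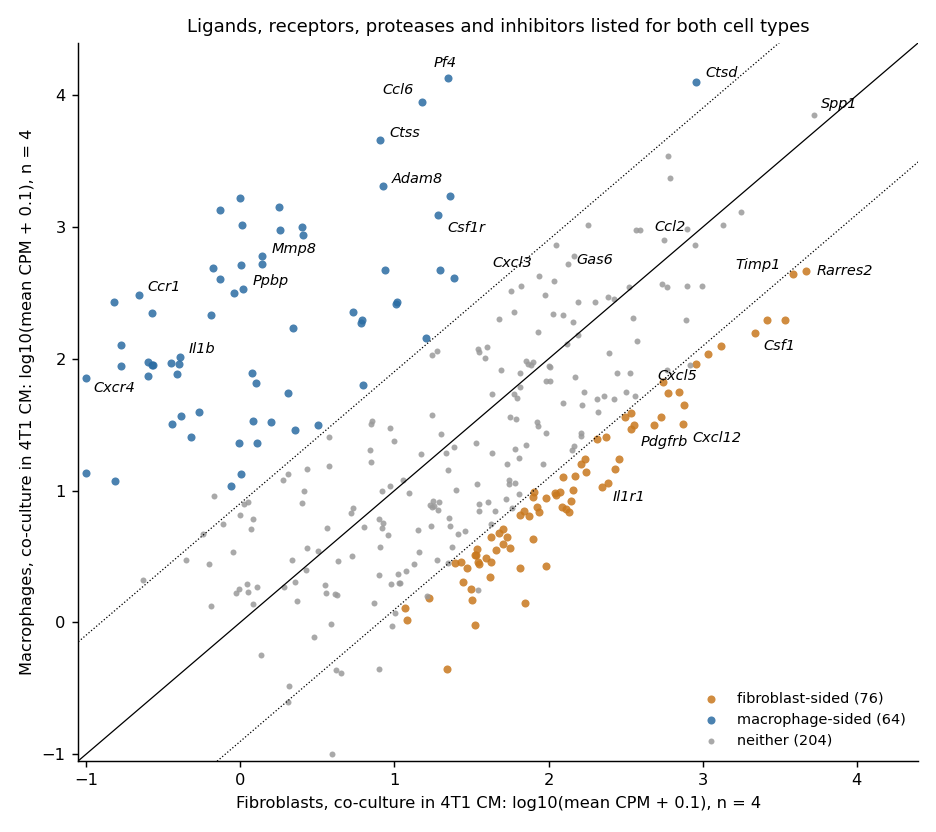
Mean level of each of the 344 list members in co-cultured fibroblasts (horizontal) and macrophages (vertical), as log10(CPM + 0.1), n = 4 each; dotted lines mark 8-fold ratios. The 64 macrophage-sided members reach down to levels near 0 in fibroblasts, while the 76 fibroblast-sided members lie in a band that runs parallel to the line of equality.

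The lists divided unevenly. Ligands leaned to fibroblasts, with 28 of 97 fibroblast-sided and 13 macrophage-sided, and receptors to macrophages, with 26 of 152 fibroblast-sided and 38 macrophage-sided. Proteases gave 14 fibroblast-sided and 10 macrophage-sided of 69, and protease inhibitors 8 and 3 of 26. Without macrophage replicate 3 the fibroblast-sided counts were 39 ligands, 33 receptors, 20 proteases and 11 inhibitors. The median log2 ratio of fibroblasts over macrophages was 1.68 for ligands, -0.09 for receptors, 1.03 for proteases and 2.46 for inhibitors, beside 0.30 for all shared genes. Secreted BMP and Wnt antagonists were fibroblast-sided in 10 of 14 cases and macrophage-sided in 0. Innate, scavenger and Fc receptors were macrophage-sided in 15 of 20 cases and fibroblast-sided in 0, and chemokine and chemoattractant receptors in 9 of 13 cases, with S1pr3 the single fibroblast-sided one.

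**Figure D3:**
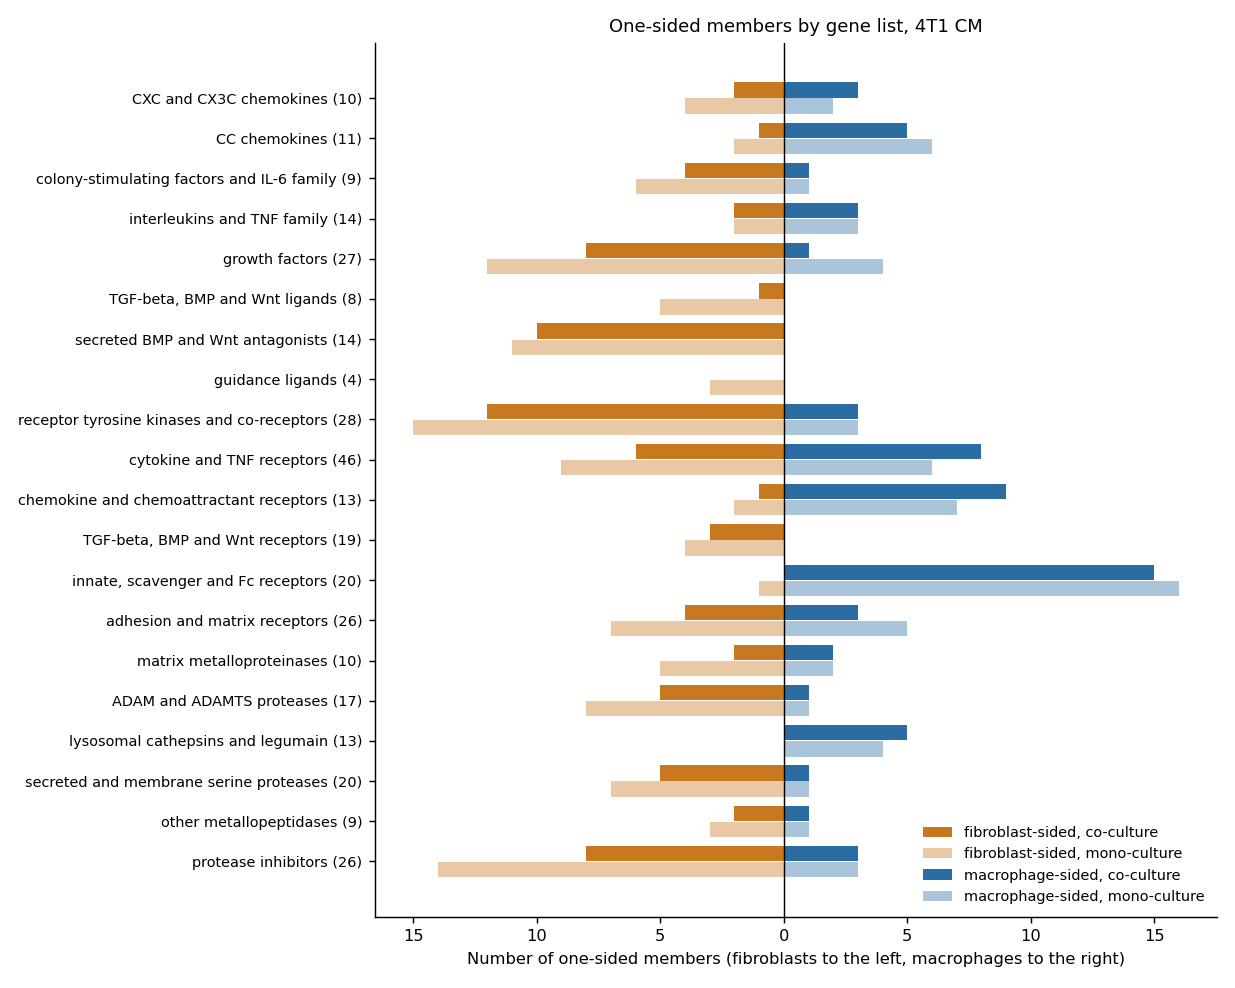
Number of fibroblast-sided members (left of 0) and macrophage-sided members (right of 0) in each list in 4T1 CM, dark for co-culture and pale for mono-culture; the number after each list name counts members listed for both cell types. Cathepsins and innate receptors have dark bars on the macrophage side only, and secreted BMP and Wnt antagonists on the fibroblast side only.

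CXC chemokines, small secreted proteins that draw leukocytes, were split between the cell types within 1 gene cluster. On chromosome 5 (build mm10, chr5:90759360-90905938) 6 of them lie within 147 kb. Cxcl5, which acts on neutrophils, was fibroblast-sided. Its levels were 366, 467, 997 and 545 CPM in co-cultured fibroblasts, against 69.0, 59.5, 55.7 and 37.4 CPM in co-cultured macrophages, a ratio of 10.7. Pf4, platelet factor 4, begins 13.1 kb further on and had 25.9, 61.8, 0.875 and 0.416 CPM in co-cultured fibroblasts, against 16383, 17019, 11752 and 9404 CPM in co-cultured macrophages. Among fibroblasts, Pf4 was far higher in replicates 1 and 2 than in 3 and 4; their macrophage marker shares were 0.311% and 0.485% against 0.0115% and 0.0385%, and the part of that share was not tested. Ppbp, pro-platelet basic protein, lies between Cxcl5 and Pf4 and had 0, 1.22, 1.31 and 1.25 CPM in co-cultured fibroblasts, against 776, 489, 71.7 and 24.5 CPM in co-cultured macrophages. Its macrophage libraries spread widely, replicate 4 being the lowest, and none overlapped the fibroblasts.

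At the far end of the cluster Cxcl2, a neutrophil chemokine, had 8.89, 12.4, 13.8 and 6.44 CPM in co-cultured fibroblasts, against 431, 233, 191 and 228 CPM in co-cultured macrophages, and was macrophage-sided at 26.1-fold. Cxcl3, also in the cluster, had 48.8, 111, 134 and 54.7 CPM in co-cultured fibroblasts, against 735, 418, 275 and 273 CPM in co-cultured macrophages; no library overlapped, but the ratio of 4.88 was short of 8. Cxcl1 leaned the other way at 165 ± 59.0 CPM in fibroblasts and 44.8 ± 7.87 CPM in macrophages (SD, n = 4 each), a ratio of 3.69. Outside the cluster, Cxcl12, which holds CXCR4-bearing cells in place, was fibroblast-sided and is given with its receptor below.

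The start regions of these neighbours are shown for the 3 members of the cluster that were higher in macrophages in every library and held a PU.1 or NF-kB match. Ppbp, also higher in macrophages in every library, held neither in its window. Each line is the RefSeq window of build GRCm38.p6 from 250 bases before to 50 bases after the annotated start, 5′ to 3′ on the gene's strand. In Pf4 (chr5:90772185-90772484, + strand) the capitals mark the letters GAGGAAGT of PU.1, a macrophage transcription factor, read on the other strand at position -10 relative to the start. In Cxcl2 (chr5:90903649-90903948, + strand) and Cxcl3 (chr5:90785851-90786150, + strand) they mark an NF-kB pattern at positions -97 and -78 in Cxcl2 and -73 in Cxcl3.
Pf4: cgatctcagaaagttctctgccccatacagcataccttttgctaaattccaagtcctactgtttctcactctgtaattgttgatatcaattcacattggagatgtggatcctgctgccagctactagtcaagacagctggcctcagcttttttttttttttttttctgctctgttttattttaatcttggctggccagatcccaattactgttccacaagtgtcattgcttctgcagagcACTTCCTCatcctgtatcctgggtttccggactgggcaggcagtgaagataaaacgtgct
Cxcl3: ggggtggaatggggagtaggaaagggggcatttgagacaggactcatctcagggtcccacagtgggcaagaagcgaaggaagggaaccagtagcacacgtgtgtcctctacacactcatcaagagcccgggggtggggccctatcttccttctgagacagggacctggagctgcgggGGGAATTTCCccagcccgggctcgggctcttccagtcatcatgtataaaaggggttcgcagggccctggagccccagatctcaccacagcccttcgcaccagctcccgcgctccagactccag
Cxcl2: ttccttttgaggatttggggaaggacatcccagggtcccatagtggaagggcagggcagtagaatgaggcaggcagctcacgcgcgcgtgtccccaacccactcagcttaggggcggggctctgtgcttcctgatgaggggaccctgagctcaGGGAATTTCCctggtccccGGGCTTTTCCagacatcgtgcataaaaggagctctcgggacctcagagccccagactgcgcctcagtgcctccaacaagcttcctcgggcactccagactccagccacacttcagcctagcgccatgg
Among 13 letter patterns searched on both strands, the PU.1 letters were found in 11 of 475 fibroblast-sided windows (2.32%) and 26 of 294 macrophage-sided windows (8.84%), beside 3.28% of all 27025 windows. The NF-kB pattern was found in 6 fibroblast-sided (1.26%) and 12 macrophage-sided windows (4.08%), beside 1.62% of all. Among the list members alone, the PU.1 letters were in 3 of 49 fibroblast-sided (6.12%) and 8 of 50 macrophage-sided windows (16%), and the NF-kB pattern in 4 of 49 (8.16%) and 4 of 50 (8%), so it did not lean to either side there. Other patterns also differed in share: the TEAD letters GGAATG were in 18.5% of fibroblast-sided and 9.52% of macrophage-sided windows, beside 14.6% of all. Sided genes are drawn from the shared genes only. Of the 8889 windows of shared genes, 11.4% held the TEAD letters, 3.01% the PU.1 letters and 1.64% the NF-kB pattern. Such matches describe the letters in these windows and show no binding.

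The CC chemokines, which act mainly on monocytes, eosinophils and T cells, also formed blocks along chromosome 11. In the block at chr11:83525778-83664683, Ccl9, Ccl6, Ccl3 and Ccl4 were all macrophage-sided. Ccl5, in the same block, was low and on neither side, at 0.529 ± 0.594 CPM in fibroblasts and 2.67 ± 2.05 CPM in macrophages. Ccl6 had 20.8, 38.5, 0.656 and 0.208 CPM in co-cultured fibroblasts, against 7244, 10922, 8192 and 9519 CPM in co-cultured macrophages, so the lowest macrophage library was far above the highest fibroblast library. Ccl3 averaged 0.152 ± 0.304 CPM in fibroblasts and 94.6 ± 33.0 CPM in macrophages, and Ccl4 0.255 ± 0.384 CPM in fibroblasts and 92.4 ± 33.0 CPM in macrophages (SD, n = 4 each). In the block at chr11:82035571-82116799 the sides were mixed. Ccl8 there was on neither side, at 7.09 ± 6.06 CPM in fibroblasts and 33.7 ± 31.5 CPM in macrophages. Ccl11, eotaxin, had 12.1, 7.09, 79.6 and 181 CPM in co-cultured fibroblasts, against 0, 0.310, 3.56 and 1.32 CPM in co-cultured macrophages; replicates 3 and 4 of both cell types were the highest of their kind. Its neighbour Ccl12 averaged 0.0674 ± 0.135 CPM in fibroblasts and 88.8 ± 48.6 CPM in macrophages. Ccl2 and Ccl7, the monocyte chemoattractants, were found in both sorted cell types. Ccl2 had 323, 339.7, 796 and 776 CPM in co-cultured fibroblasts, against 713, 881, 393 and 1187 CPM in co-cultured macrophages, and the cell types overlapped. Ccl7 had 165, 154, 296 and 352 CPM in co-cultured fibroblasts, against 192, 355, 153 and 479.6 CPM in co-cultured macrophages, again with overlap.

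**Figure D4:**
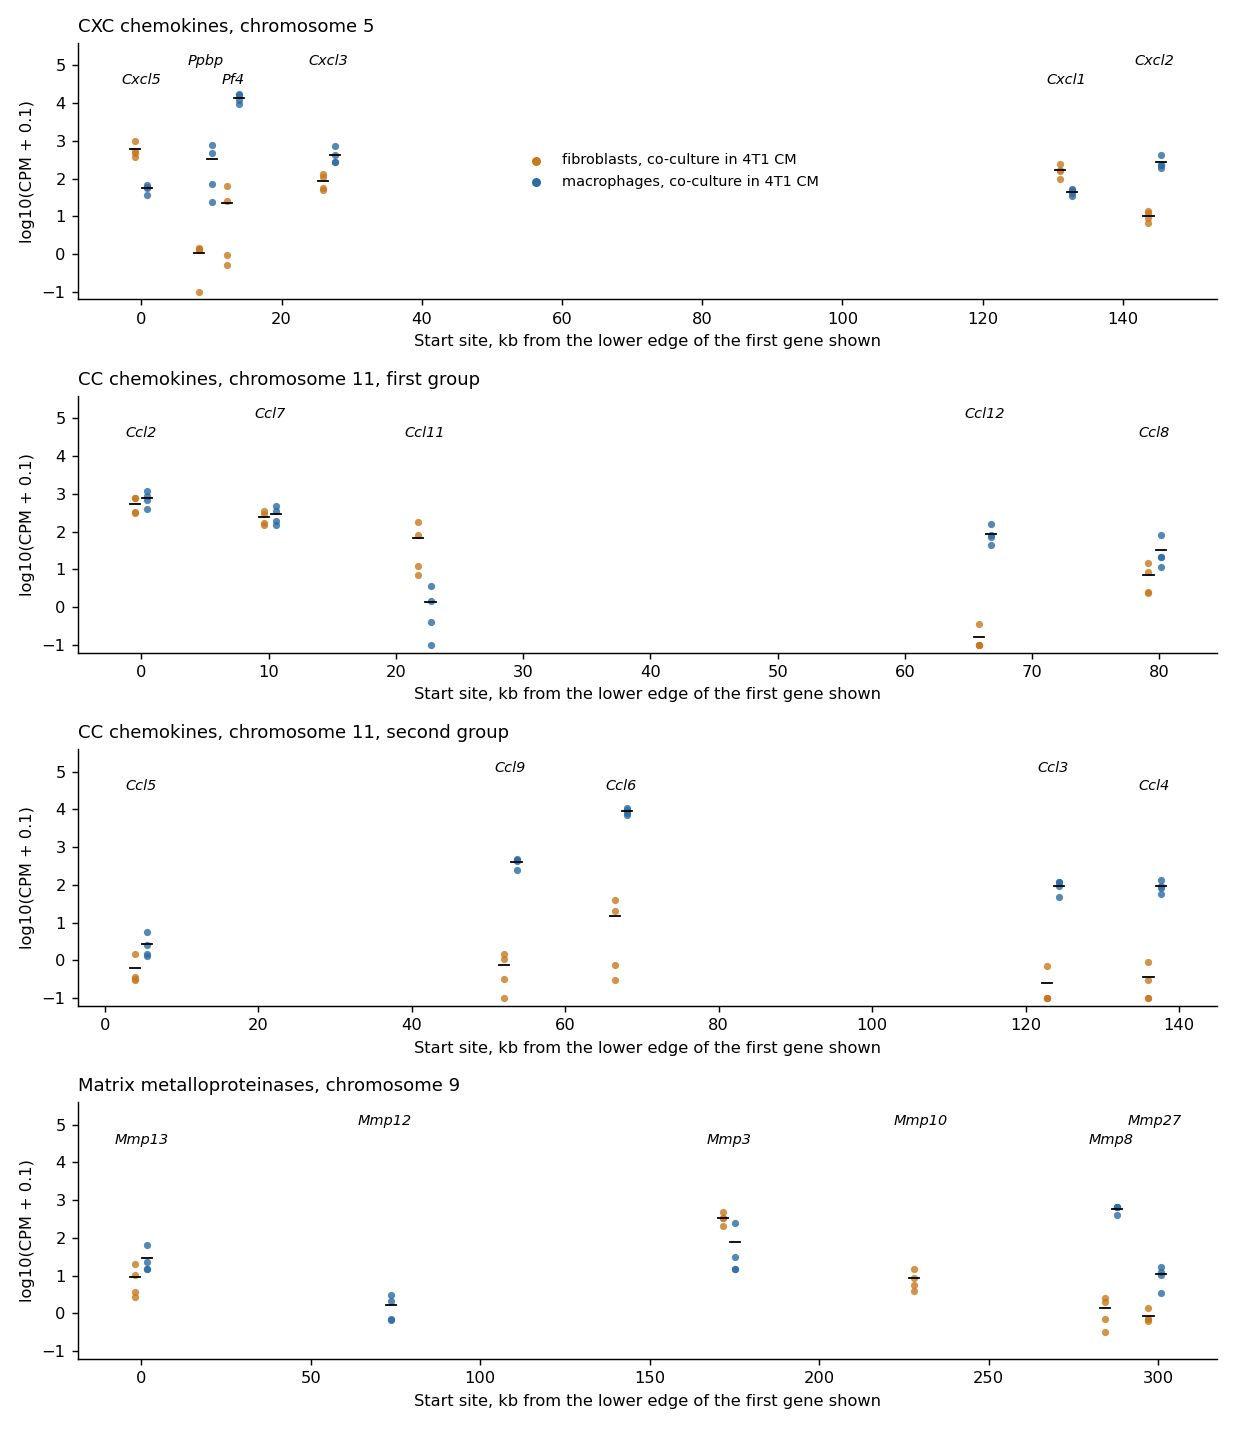
Levels of each gene in the 4 clusters, as log10(CPM + 0.1), by the distance of its start site in kb from the edge of the first gene shown; points are the 4 fibroblast (orange) and 4 macrophage (blue) co-culture libraries, bars the means, and a missing colour means that the gene was not listed for that cell type. Cxcl5 and Pf4, or Ccl11 and Ccl12, take opposite sides within one cluster, while Ccl9, Ccl6, Ccl3 and Ccl4 are all on the macrophage side. Ccl5, in the same group as these, is on neither side.

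Colony-stimulating factors and IL-6 family ligands leaned to fibroblasts, with 4 of 9 fibroblast-sided (among them Csf1, Lif and Clcf1) and 1 macrophage-sided (Ebi3). For Csf1, the macrophage growth factor, the levels were 2399.8, 2101, 2037 and 2148 CPM in co-cultured fibroblasts, against 91.3, 95.1, 349.6 and 87.7 CPM in co-cultured macrophages, a ratio of 13.9, or 23.8 without macrophage replicate 3. In mono-culture Csf1 had 1881 and 1474 CPM in fibroblasts and 5.73, 3.77, 4.59 and 3.12 CPM in macrophages. Its start region (chr3:107760420-107760719, - strand) is shown because it is a fibroblast-sided ligand with an NF-kB pattern, here read on the other strand at position -154.
Csf1: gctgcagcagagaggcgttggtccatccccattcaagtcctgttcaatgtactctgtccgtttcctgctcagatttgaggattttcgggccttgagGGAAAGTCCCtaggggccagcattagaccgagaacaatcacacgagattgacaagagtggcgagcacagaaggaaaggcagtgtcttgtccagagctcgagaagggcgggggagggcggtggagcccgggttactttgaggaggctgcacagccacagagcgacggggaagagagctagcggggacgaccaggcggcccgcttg
Lif, which acts through the gp130 receptor chain, had 154, 324, 61.0 and 37.8 CPM in co-cultured fibroblasts, against 0, 6.81, 29.6 and 3.97 CPM in co-cultured macrophages. Its fibroblast libraries spread more than those of Csf1, replicates 3 and 4 being the low ones. Ebi3, a subunit of IL-27 and IL-35, averaged 0.288 ± 0.235 CPM in fibroblasts and 76.6 ± 9.41 CPM in macrophages. Il6 was on neither side, at 18.7 ± 6.83 CPM in fibroblasts and 2.86 ± 2.71 CPM in macrophages.

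Of interleukins and TNF family ligands, 2 of 14 were fibroblast-sided, Il33 and Tnfsf11, and 3 macrophage-sided, Il1b, Il15 and Il16. Il33, an alarmin released by damaged stromal cells, had 32.9, 42.8, 21.9 and 13.1 CPM in co-cultured fibroblasts, against 2.09, 0.619, 2.96 and 1.98 CPM in co-cultured macrophages. Tnfsf11 (RANKL), which drives osteoclast formation, averaged 11.99 ± 10.2 CPM in fibroblasts and 0.953 ± 1.04 CPM in macrophages. Spp1, osteopontin, a secreted ligand of integrins and CD44, was abundant in both, at 4289, 5620.3, 4982 and 6149.7 CPM in co-cultured fibroblasts, against 7721, 7676, 7247 and 5607 CPM in co-cultured macrophages. The cell types overlapped for Spp1, so it was on neither side.

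Growth factors gave 8 fibroblast-sided members of 27 and 1 macrophage-sided, Pdgfb. Rarres2, the precursor of the chemoattractant chemerin, had 6034, 8189, 2275 and 2263 CPM in co-cultured fibroblasts, against 131, 210.3, 1356 and 149.8 CPM in co-cultured macrophages. Fibroblast replicates 1 and 2 were the high ones, and only macrophage replicate 3 came near the low ones. Fgf7, which acts on epithelial cells, had 254, 220.1, 211 and 289.7 CPM in co-cultured fibroblasts, against 6.27, 5.26, 30.2 and 3.97 CPM in co-cultured macrophages, a ratio of 21.3. Angptl4 and Vegfd were fibroblast-sided too, at 8.47 and 17.0 times the macrophage mean. Among the antagonists that bind BMPs or Wnts outside the cell, Nbl1 averaged 759 ± 123 CPM in fibroblasts and 44.4 ± 50.1 CPM in macrophages. Sfrp1, a Wnt inhibitor, averaged 483 ± 349.8 CPM in fibroblasts and 31.5 ± 39.1 CPM in macrophages (SD, n = 4 each). Of TGF-beta, BMP and Wnt ligands only Gdf15 was fibroblast-sided among 8, and Tgfb1 was on neither side, at 108 ± 34.2 CPM in fibroblasts and 219.6 ± 32.5 CPM in macrophages.

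Receptor tyrosine kinases were fibroblast-sided in 12 of 28 cases and macrophage-sided in 3, namely Csf1r, Mertk and Kdr. The PDGF receptors were on the fibroblast side, where Pdgfra averaged 112 ± 19.4 CPM in fibroblasts and 9.14 ± 7.91 CPM in macrophages. The TAM receptors, which bind Gas6 and help clear dying cells, were divided. Axl had 1048, 1358, 1142 and 816 CPM in co-cultured fibroblasts, against 88.5, 81.1, 193 and 76.4 CPM in co-cultured macrophages. Mertk had 0.808, 0.405, 1.09 and 2.08 CPM in co-cultured fibroblasts, against 100.4, 77.7, 53.3 and 80.7 CPM in co-cultured macrophages. Axl was thus fibroblast-sided and Mertk macrophage-sided, although Axl was also at 77.5, 84.4, 84.5 and 122 CPM in mono-cultured macrophages, whose fibroblast marker share was 0% to 0.197%. Their ligand Gas6 had 77.3, 41.6, 169 and 245 CPM in co-cultured fibroblasts, against 323, 713, 574 and 478 CPM in co-cultured macrophages, with no overlap but a ratio of only 3.92.

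Cytokine and TNF receptors were fibroblast-sided in 6 of 46 cases and macrophage-sided in 8. Osmr, the oncostatin M receptor, had 298, 271, 168 and 201 CPM in co-cultured fibroblasts, against 10.5, 17.7, 56.9 and 16.2 CPM in co-cultured macrophages, and its ligand Osm was listed for macrophages only, at 49.5, 61.0, 33.2 and 46.3 CPM. Tnfrsf12a, the TWEAK receptor, averaged 703 ± 133 CPM in fibroblasts and 55.7 ± 41.2 CPM in macrophages. Il6ra, the IL-6 receptor, had 8.35, 4.87, 4.59 and 6.86 CPM in co-cultured fibroblasts, against 84.3, 62.9, 53.9 and 50.3 CPM in co-cultured macrophages. The shared beta chains of the GM-CSF receptor family stood on the macrophage side, where Csf2rb averaged 1.28 ± 1.92 CPM in fibroblasts and 522 ± 128 CPM in macrophages and Csf2rb2 0.810 ± 1.15 CPM in fibroblasts and 314 ± 57.7 CPM in macrophages. Csf2rb and Csf2rb2 are close paralogs, so the division of reads between them is uncertain.

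Receptors that sense chemoattractants, complement and microbes were often macrophage-sided. Ccr1, a receptor of CC chemokines, had 0.269, 0, 0 and 0.208 CPM in co-cultured fibroblasts, against 389, 272, 212 and 352 CPM in co-cultured macrophages. Fibroblast levels were at or under the level of 3 reads in each library, so no ratio is given. C3ar1 and C5ar1, receptors of complement fragments, averaged 0.0507 ± 0.101 and 0.544 ± 0.624 CPM in fibroblasts and 269.6 ± 75.4 and 217 ± 55.0 CPM in macrophages (SD, n = 4 each). Ltb4r1, the leukotriene B4 receptor, had 1.62, 4.05, 1.09 and 1.66 CPM in co-cultured fibroblasts, against 273, 153, 155 and 105 CPM in co-cultured macrophages. S1pr3, a sphingosine-1-phosphate receptor, went the other way at 135 ± 42.9 CPM in fibroblasts and 6.74 ± 4.82 CPM in macrophages. Cd14, the endotoxin co-receptor, averaged 22.9 ± 5.77 CPM in fibroblasts and 1719 ± 333 CPM in macrophages, and Fcgr3, an antibody receptor, 1.67 ± 1.93 CPM in fibroblasts and 1420.0 ± 171 CPM in macrophages. The integrin chains Itgam and Itgb2 were macrophage-sided as well, but Itgam encodes CD11b, by which the cells were sorted, so its side is not a finding. TGF-beta, BMP and Wnt receptors gave 3 fibroblast-sided members of 19, Tgfbr3, Fzd1 and Bmpr1a, and 0 macrophage-sided. Tgfbr2 was on neither side, at 94.5 ± 4.55 CPM in fibroblasts and 308 ± 48.3 CPM in macrophages.

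Ligands and receptors were then read together. Of 94 known ligand and receptor pairs, 44 had both genes listed for both cell types, and in 10 both genes were sided. The ligand was fibroblast-sided and the receptor macrophage-sided in 3 pairs, Csf1 with Csf1r, Cxcl12 with Cxcr4 and Rarres2 with Cmklr1. The ligand was macrophage-sided and the receptor fibroblast-sided in 2 pairs, Pdgfb with Pdgfrb and Il1b with Il1r1. Both genes were macrophage-sided in 4 pairs, among them Ccl3, Ccl6 and Ccl9 with Ccr1, and both fibroblast-sided in 1, Il33 with Il1rl1. In mono-culture, with only 2 fibroblast libraries beside 4 of macrophages, the counts in the same order were 4, 3, 5 and 3.

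Csf1r, the receptor of CSF1, had 25.1, 25.1, 13.8 and 12.5 CPM in co-cultured fibroblasts, against 1487, 1295, 994 and 1144 CPM in co-cultured macrophages, a macrophage excess of 64.4-fold. Cxcl12 had 533, 299.8, 1297 and 861 CPM in co-cultured fibroblasts, against 8.36, 7.74, 98.4 and 13.6 CPM in co-cultured macrophages. Its receptor gene Cxcr4 had 0, 0.608, 0 and 0 CPM in co-cultured fibroblasts, against 56.5, 74.6, 78.2 and 89.3 CPM in co-cultured macrophages. Neither gene overlapped between the cell types, and Cxcl12 had 0 reads in 3 of the 4 mono-cultured macrophage libraries. Cmklr1, the chemerin receptor, had 0, 0.203, 1.97 and 1.45 CPM in co-cultured fibroblasts, against 17.4, 17.3, 8.89 and 9.59 CPM in co-cultured macrophages, close to the minimum of 10 CPM.

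In the macrophage-to-fibroblast direction Pdgfb had 1.35, 1.01, 0.437 and 1.66 CPM in co-cultured fibroblasts, against 34.2, 31.6, 41.5 and 26.5 CPM in co-cultured macrophages. Its receptor gene Pdgfrb had 273, 245, 483 and 378 CPM in co-cultured fibroblasts, against 18.1, 19.8, 53.3 and 25.1 CPM in co-cultured macrophages. Every fibroblast library was on the far side of every macrophage library for both genes. Il1b, the inflammatory interleukin-1 beta, had 0, 1.22, 0 and 0 CPM in co-cultured fibroblasts, against 146, 27.3, 65.8 and 176 CPM in co-cultured macrophages. Il1r1, its receptor, had 224, 208, 273 and 183 CPM in co-cultured fibroblasts, against 2.79, 6.50, 24.3 and 8.93 CPM in co-cultured macrophages. Among the macrophages Il1b was lowest in replicate 2. Il1rl1, the IL-33 receptor, was at 29.1, 38.5, 39.1 and 59.9 CPM in co-cultured fibroblasts, against 1.39, 1.55, 4.15 and 1.32 CPM in co-cultured macrophages. These are RNA levels, and neither protein nor signalling was measured.

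**Figure D5:**
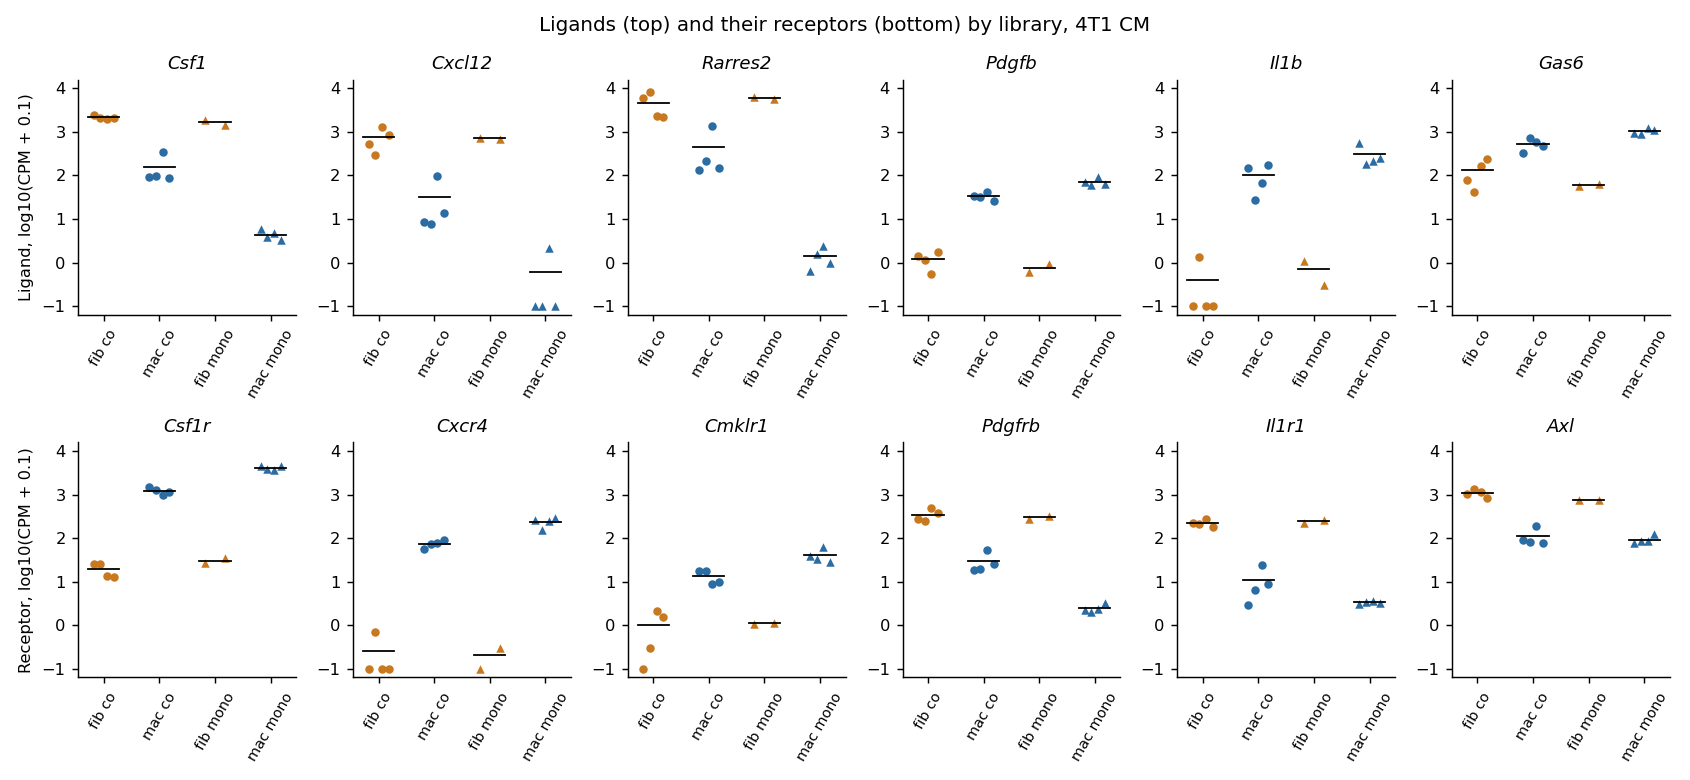
Levels of 6 ligands (top) and a receptor of each (bottom) in every library in 4T1 CM, as log10(CPM + 0.1), with lines at the group means; circles are co-cultures, triangles mono-cultures, orange fibroblasts and blue macrophages. Csf1, Cxcl12 and Rarres2 are high in fibroblasts with receptors high in macrophages, Pdgfb and Il1b the reverse, and Gas6 is higher in macrophages than in fibroblasts in both cultures.

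Matrix metalloproteinases (MMPs), which cut extracellular matrix, were 2 fibroblast-sided and 2 macrophage-sided of 10. Mmp2, a gelatinase, had 802, 544, 1091 and 1179 CPM in co-cultured fibroblasts, against 25.8, 21.4, 245 and 74.8 CPM in co-cultured macrophages. Mmp23 was fibroblast-sided too, at 16.6-fold. Mmp8, a collagenase, had 1.89, 2.43, 0.219 and 0.624 CPM in co-cultured fibroblasts, against 676, 662, 402 and 657 CPM in co-cultured macrophages. Mmp8 lies in a cluster of MMP genes on chromosome 9 (chr9:7272514-7699585), where Mmp27 was also macrophage-sided, Mmp10 was listed for fibroblasts only and Mmp12 for macrophages only. Mmp3, stromelysin 1, lies in the same cluster and had 335, 472, 211 and 328 CPM in co-cultured fibroblasts, against 15.3, 14.6, 249 and 31.8 CPM in co-cultured macrophages. Macrophage replicate 3 alone overlapped the fibroblasts, and without it Mmp3 was fibroblast-sided at 16.4-fold. Mmp9, the other gelatinase, had 158, 197, 370.2 and 194 CPM in co-cultured fibroblasts, against 95.5, 39.0, 51.0 and 23.8 CPM in co-cultured macrophages, a ratio of 4.39. The start region of Mmp8 (chr9:7558179-7558478, + strand) is shown as 1 of 3 macrophage-sided proteases with the PU.1 letters, the others being Ctsc and Ctss; in Mmp8 they lie on the other strand at position -221.
Mmp8: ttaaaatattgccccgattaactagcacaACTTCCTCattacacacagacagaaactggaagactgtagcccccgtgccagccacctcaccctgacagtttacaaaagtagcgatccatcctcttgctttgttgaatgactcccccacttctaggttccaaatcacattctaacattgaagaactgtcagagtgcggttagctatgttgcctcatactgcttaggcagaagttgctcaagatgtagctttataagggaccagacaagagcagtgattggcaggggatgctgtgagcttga

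Cathepsins, the lysosomal proteases, were macrophage-sided in 5 of 13 cases and fibroblast-sided in 0. Ctsd had 948, 757, 744 and 1174 CPM in co-cultured fibroblasts, against 9999, 13981, 13522 and 12897 CPM in co-cultured macrophages, so it was macrophage-sided at 13.9-fold. Ctss, which acts in antigen presentation, had 9.70, 21.3, 0.219 and 0.624 CPM in co-cultured fibroblasts, against 3762, 4964, 4193 and 5357 CPM in co-cultured macrophages. ADAM and ADAMTS proteases were fibroblast-sided in 5 of 17 cases, among them Adam12, Adamts2 and Adamts7. The macrophage-sided one was Adam8, with 10.2, 13.8, 3.72 and 5.40 CPM in co-cultured fibroblasts, against 2413, 1965, 1581 and 2223 CPM in co-cultured macrophages. Serine proteases were fibroblast-sided in 5 of 20 cases, including Htra1, Plat, the tissue plasminogen activator, and C1s1 of the complement cascade, whose reads are uncertain because C1s2 is a close paralog. F7, coagulation factor VII, was the macrophage-sided one at 0.312 ± 0.266 CPM in fibroblasts and 37.0 ± 7.79 CPM in macrophages, and F10, coagulation factor X, was listed for macrophages only at 118, 90.1, 87.1 and 81.0 CPM. Bmp1, a procollagen-cutting enzyme, was fibroblast-sided at 14.9-fold.

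Of 26 protease inhibitors, 8 were fibroblast-sided and 3 macrophage-sided. Timp1, an MMP inhibitor, had 3179, 4741, 3349 and 4109 CPM in co-cultured fibroblasts, against 176, 232, 1151 and 189.5 CPM in co-cultured macrophages, a ratio of 8.79, or 19.3 without macrophage replicate 3. Serpinf1 was fibroblast-sided at 17.3-fold. The 3 macrophage-sided inhibitors were Slpi, Wfdc17 and Serpinb8. Slpi, a leukocyte protease inhibitor, had 21.6, 15.0, 27.3 and 15.4 CPM in co-cultured fibroblasts, against 385, 427, 489 and 576 CPM in co-cultured macrophages. Wfdc17 had 1.35, 2.03, 0 and 0.208 CPM in co-cultured fibroblasts, against 885, 2180.4, 691 and 2936 CPM in co-cultured macrophages, where replicates 2 and 4 were the high ones.

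Members listed for 1 cell type only were mostly low. Of the 93 listed for fibroblasts only, 4 reached 10 CPM in the co-cultures and 0 reached 50 CPM. Of the 52 listed for macrophages only, 24 reached 10 CPM and 8 reached 50 CPM: the receptors Msr1, Trem1, Clec4e, Tlr8 and Ccr2, the ligand Tnfsf14 and the proteases Napsa and F10. Trem1, which amplifies inflammatory signals in myeloid cells, had 236, 151, 117 and 164 CPM in co-cultured macrophages and 2.73, 4.52, 12.04 and 10.7 CPM in mono-cultured ones. Ccr2, the receptor of Ccl2 and Ccl7, averaged 57.6 ± 41.3 CPM in co-cultured macrophages and 8.50 ± 3.22 CPM in mono-cultured ones (SD, n = 4 each).

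Sides in co-culture were next set beside sides in mono-culture and in DMEM. Of the 657 fibroblast-sided genes, 626 were fibroblast-sided in mono-culture too and 578 in the DMEM co-cultures; of the 389 macrophage-sided genes, 332 were macrophage-sided in mono-culture and 312 in the DMEM co-cultures. No gene was on opposite sides in co-culture and mono-culture. In mono-culture 1130 shared genes (10.2%) were fibroblast-sided and 425 (3.82%) macrophage-sided, and in the DMEM co-cultures 863 (7.76%) and 388 (3.49%). The rule of no overlap there used 2 fibroblast and 4 macrophage libraries in mono-culture, and 3 and 3 in DMEM. It is easier to meet with fewer libraries. These counts, and the sides lost or gained in co-culture, are therefore not like for like. Among list members, 120 were fibroblast-sided and 65 macrophage-sided in mono-culture. In the co-cultures 46 members that were fibroblast-sided in mono-culture stood on neither side, of which 25 were fibroblast-sided without macrophage replicate 3. Another 7 stood on the macrophage side that were on neither in mono-culture: Ppbp, Ltb4r1, Il6ra, Ctsl, Tlr4, Tnfrsf26 and Cx3cr1. Conversely, 8 macrophage-sided members of mono-culture, among them Gas6, Grn (progranulin), Sirpa and Ccl8, stood on neither side in co-culture. Frzb and Cfb were fibroblast-sided in co-culture only. Over all shared genes, 504 of the 1130 fibroblast-sided in mono-culture stood on neither side in co-culture, beside 46 of the 120 list members. Of the 425 macrophage-sided in mono-culture, 93 stood on neither side, beside 8 of the 65 list members. The loss of a side was thus not particular to the list members. On neither side in mono-culture were 57 shared genes macrophage-sided in co-culture and 31 fibroblast-sided in co-culture.

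The 120 members that were fibroblast-sided in mono-culture were compared with what the fibroblast share alone would give in the co-cultured macrophages. The measured level over that level, taken as the median of the 4 libraries for each gene, had a median of 1.44 over the genes, and 79 of the 120 lay between 0.5 and 2. It was 2 or more in all 4 libraries for 9 genes. For 35 genes the median was 2 or more. The highest median was that of Tnfrsf9, a TNF receptor named after its values were seen, whose ratio ran from 12.5 to 212 at a mean of 20.4 ± 13.3 CPM in co-cultured macrophages (SD, n = 4). For Ccl7 the ratio ran from 3.27 to 55.8 and for Cxcl14 from 2.50 to 10.3. For Vegfa it ran from 1.69 to 9.63, so it was not among the 9. Vegfa, which drives vessel growth, was at 202, 167, 257 and 166 CPM in co-cultured macrophages and 35.5, 30.9, 51.3 and 44.1 CPM in mono-cultured ones. Cxcl14 was at 275, 227, 783 and 141 CPM in co-cultured macrophages and 36.0, 78.4, 79.1 and 60.6 CPM in mono-cultured ones. The share behind these ratios is a median over 24 fibroblast markers, which spread widely around it. Single markers stood at 0% to 11.6%, 0.866% to 11.3%, 10.8% to 50.4% and 1.38% to 20.2% in macrophage replicates 1, 2, 3 and 4. A ratio above 1 thus also occurred among the markers, and whether macrophages made these RNAs was not tested.

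Co-culture against mono-culture was tested within each cell type. In macrophages, 1342 of 9617 genes (14.0%) rose and 1150 fell in co-culture in 4T1 CM, 25.9% in either direction (edgeR's quasi-likelihood test, Benjamini-Hochberg adjusted p under 0.05). Of 307 list members tested, 111 rose and 57 fell. The members' median log2 change was 0.30, beside 0.02 for all genes. Of the 79 tested members that were fibroblast-sided in mono-culture, 67 rose and 0 fell, with a median log2 change of 3.95. Of the 65 macrophage-sided in mono-culture, 10 rose and 29 fell, with a median of -0.44. Of the 126 on neither side, 28 rose and 17 fell, with a median of 0.17. These sides were set with the same mono-cultured macrophage libraries that served as the reference of the test. The split of rises and falls by side is thus partly fixed by how the members were chosen. The fibroblast marker share was 2.63% to 19.4% in these co-cultured macrophages and 0% to 0.197% in the mono-cultured ones. The 1 listed neutrophil marker of 6 had 18.4 to 62.7 CPM in co-culture and 7.74 to 15.8 CPM in mono-culture. The 1 listed epithelial marker of 6 had 17.0 to 36.2 CPM in co-culture and 0 to 0.860 CPM in mono-culture. The part of that share and of these markers in the changes here and below was not tested.

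The receptors at the macrophage end of the pairs were lower in co-culture. Csf1r had 1487, 1295, 994 and 1144 CPM in co-cultured macrophages, against 4622, 3849, 3775 and 4491 CPM in mono-cultured ones, and fell by 1.94 ± 0.18 on the log2 scale (SE; adjusted p = 9.98e-06). Cxcr4 had 56.5, 74.6, 78.2 and 89.3 CPM in co-cultured macrophages, against 255, 152, 242 and 285 CPM in mono-cultured ones, and fell by 1.81 ± 0.18 on the log2 scale (SE; adjusted p = 1.67e-05). Neither gene's groups overlapped. Cmklr1 also fell, by 1.79 ± 0.28 on the log2 scale (SE; adjusted p = 0.000426). Among ligands Pdgfb fell by 1.30 ± 0.17 on the log2 scale (SE; adjusted p = 9.54e-05), and Gas6 by 1.16 ± 0.20 on the log2 scale (SE; adjusted p = 0.000868). Il1b had 146, 27.3, 65.8 and 176 CPM in co-cultured macrophages, against 569.6, 180.1, 215 and 258 CPM in mono-cultured ones, and fell by 1.77 ± 0.48 on the log2 scale (SE; adjusted p = 0.0153). That call rested on mono-culture replicate 1: without it the log2 change was -1.19 and the adjusted p 0.074. Clec4a1, a C-type lectin receptor, fell by 4.00 ± 0.26 on the log2 scale (SE; adjusted p = 6.64e-07), Csf3r, the G-CSF receptor, by 3.28 ± 0.23 on the log2 scale (SE; adjusted p = 1.11e-06), and Ctss by 1.24 ± 0.15 on the log2 scale (SE; adjusted p = 6.97e-05).

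Several macrophage ligands rose. Spp1 had 7721, 7676, 7247 and 5607 CPM in co-cultured macrophages, against 514, 885, 602 and 573 CPM in mono-cultured ones, and rose by 3.28 ± 0.26 on the log2 scale (SE; adjusted p = 2.67e-06). Ccl2 had 713, 881, 393 and 1187 CPM in co-cultured macrophages, against 82.7, 94.9, 105 and 139.9 CPM in mono-cultured ones, and rose by 2.75 ± 0.29 on the log2 scale (SE; adjusted p = 2.06e-05). Ccl6 rose by 1.98 ± 0.24 on the log2 scale (SE; adjusted p = 6.02e-05), Cxcl3 by 4.26 ± 0.49 on the log2 scale (SE; adjusted p = 4.28e-05), and Ccl7 by 3.08 ± 0.31 on the log2 scale (SE; adjusted p = 1.48e-05). Spp1, Ccl2, Cxcl3 and Ccl7 were also present in co-cultured fibroblasts, and the part of the fibroblast share in these rises was not tested. Ppbp had 776, 489, 71.7 and 24.5 CPM in co-cultured macrophages, against 6.55, 13.2, 12.04 and 12.5 CPM in mono-cultured ones, and rose by 4.78 ± 0.89 on the log2 scale (SE; adjusted p = 0.00134). Among the receptors Trem1 rose by 4.32 ± 0.41 on the log2 scale (SE; adjusted p = 1.14e-05), and Ltb4r1 by 3.81 ± 0.38 on the log2 scale (SE; adjusted p = 1.49e-05). Of the proteases Adam8 rose by 1.93 ± 0.19 on the log2 scale (SE; adjusted p = 1.39e-05), Ctsl by 1.84 ± 0.23 on the log2 scale (SE; adjusted p = 8.28e-05), and Mmp9, which fibroblasts also carry, by 5.22 ± 0.52 on the log2 scale (SE; adjusted p = 1.49e-05).

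In fibroblasts the same comparison gave far fewer calls. By limma on log2(normalized value + 1) 3 of 12401 genes (0.0242%) rose and 0 fell in co-culture in 4T1 CM at an adjusted p under 0.05, and 0 of 416 list members passed. At an unadjusted p under 0.05 there were 1155 genes and 50 list members, and edgeR on whole reads recovered from the table called 0 genes. Only 2 mono-culture libraries entered, and without replicate 2 of them 297 genes, 8 of them list members, were called. Csf1 had 2399.8, 2101, 2037 and 2148 CPM in co-cultured fibroblasts, against 1881 and 1474 CPM in mono-cultured ones, a change that did not pass (a log2 change of 0.38 ± 0.19 (SE), adjusted p = 0.559). Cxcl12, at 533, 299.8, 1297 and 861 CPM in co-cultured fibroblasts, against 727 and 691 CPM in mono-cultured ones, did not pass either (a log2 change of -0.13 ± 0.43 (SE), adjusted p = 0.954). The mono-culture values of Cxcl12 lay within the range of the co-cultures. Fgfr1, an FGF receptor, had a log2 change of 0.77 ± 0.24 (SE), adjusted p = 0.413; without mono-culture replicate 2 its log2 change was 1.28 and its adjusted p 0.0087. A difference between the responses of the cell types was not tested.

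In co-cultured macrophages 546 genes (5.68%) rose and 454 (4.72%) fell in 4T1 CM relative to DMEM (10.4% in either direction), and of 307 list members 71 rose and 38 fell (edgeR, as above). Marker levels moved with the medium: the fibroblast share was 2.63% to 19.4% in 4T1 CM and 1.90% to 6.71% in DMEM, the 1 listed neutrophil marker of 6 had 18.4 to 62.7 CPM in 4T1 CM and 5.07 to 5.97 CPM in DMEM, and the 1 listed epithelial marker of 6 had 17.0 to 36.2 CPM in 4T1 CM and 0 to 2.41 CPM in DMEM. Their part in the changes below was not tested. Pf4 had 16383, 17019, 11752 and 9404 CPM in 4T1 CM, against 356, 451 and 765 CPM in DMEM, and rose by 4.71 ± 0.32 on the log2 scale (SE; adjusted p = 1.21e-06). Mmp8 had 676, 662, 402 and 657 CPM in 4T1 CM, against 3.41, 4.82 and 1.69 CPM in DMEM, and rose by 7.58 ± 0.37 on the log2 scale (SE; adjusted p = 1.03e-07). Mmp8 and F7 were macrophage-sided in 4T1 CM and on neither side in DMEM. F7 averaged 37.0 ± 7.79 CPM in 4T1 CM and 0.633 ± 0.340 CPM in DMEM, where each library held at most 3 reads, so no fold is given (adjusted p = 3.36e-07). F10 rose by 5.22 ± 0.28 on the log2 scale (SE; adjusted p = 1.59e-07). Mmp13, a further collagenase, averaged 29.6 ± 25.1 CPM in 4T1 CM and had 0 reads in all DMEM libraries (adjusted p = 0.000399). Ppbp rose by 7.68 ± 1.28 on the log2 scale (SE; adjusted p = 0.00157), and Ccl6 by 2.76 ± 0.27 on the log2 scale (SE; adjusted p = 3.67e-05). In the other direction Csf1r fell by 1.29 ± 0.19 on the log2 scale (SE; adjusted p = 0.000659), Gas6 by 1.56 ± 0.21 on the log2 scale (SE; adjusted p = 0.000393), Ccl8 by 3.34 ± 0.64 on the log2 scale (SE; adjusted p = 0.00417), and Clec12a, an inhibitory lectin receptor, by 3.64 ± 0.27 on the log2 scale (SE; adjusted p = 2.25e-06). Spp1 in macrophages did not pass (a log2 change of -0.53 ± 0.26 (SE), adjusted p = 0.239).

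In co-cultured fibroblasts 289 genes (2.33%) rose and 436 (3.52%) fell in 4T1 CM relative to DMEM (5.85% in either direction), and of 416 list members 45 rose and 53 fell (limma, as above). Markers of other cell types moved with the medium: the 6 glial markers summed to 2.69 to 211 CPM in 4T1 CM and 284 to 602 CPM in DMEM, the 6 skeletal muscle markers to 34.0 to 108 CPM in 4T1 CM and 149 to 294 CPM in DMEM, and the 3 listed mural markers of 6 to 49.0 to 82.5 CPM in 4T1 CM and 144 to 242 CPM in DMEM. Their part in the changes was not tested. Colony-stimulating factors and IL-6 family ligands rose in 6 of 13 cases and fell in 0, and CXC chemokines rose in 4 of 11 and fell in 0. Cxcl5 had 366, 467, 997 and 545 CPM in 4T1 CM, against 78.3, 72.9 and 43.9 CPM in DMEM, and rose by 3.14 ± 0.32 on the log2 scale (SE; adjusted p = 0.000132). Csf1 had 2399.8, 2101, 2037 and 2148 CPM in 4T1 CM, against 991, 1483 and 1469 CPM in DMEM, and rose by 0.76 ± 0.17 on the log2 scale (SE; adjusted p = 0.0153). That call was lost without DMEM replicate 1, where its log2 change was 0.55 and its adjusted p 0.078. Mmp3 rose by 3.70 ± 0.38 on the log2 scale (SE; adjusted p = 0.000132), Timp1 by 1.52 ± 0.19 on the log2 scale (SE; adjusted p = 0.000553), Spp1 by 2.52 ± 0.34 on the log2 scale (SE; adjusted p = 0.000772), and Il1rl1 by 3.00 ± 0.44 on the log2 scale (SE; adjusted p = 0.00141). Pdgfb had 1.35, 1.01, 0.437 and 1.66 CPM in 4T1 CM, against 26.1, 14.8 and 24.7 CPM in DMEM, and fell by 4.06 ± 0.36 on the log2 scale (SE; adjusted p = 6.64e-05). Cxcr4 also fell (adjusted p = 0.00654), with 0, 0.608, 0 and 0 CPM in 4T1 CM, against 4.16, 3.11 and 3.35 CPM in DMEM; no fold is given because the 4T1 CM libraries held 3 reads or fewer. The macrophage marker share was 0.0115% to 0.485% in fibroblasts of the 4T1 CM co-cultures and 0.902% to 1.81% in those of the DMEM co-cultures, and its part in these falls was not tested.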

How the data were processed

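RNA of sorted fibroblasts (12 libraries) and macrophages (11 of 14 samples used) was sequenced from 3′ ends; per the submitters' processing notes HTSeq, STAR 2.4.2a and bcl2fastq were used with build mm10, without stated parameters. The macrophage values tested are read counts per gene as deposited by the authors. The fibroblast and macrophage tables of normalized values (unit signal, counts divided by size factors) were deposited by the authors, separately for each cell type; 100% of their values were whole reads within 0.001 reads once the library factor was removed. In 2 files, 3 columns each (6 in all) matched no sample's labels and were not used, so mono-cultured macrophages in DMEM or on day 0 are not analysed here.

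Each library was rescaled to CPM over all listed genes. Sides needed a mean of at least 10 CPM, an 8-fold ratio and no overlap, with no test across the tables. Within fibroblasts, limma 3.58.1 (trend) was run on log2(value + 1) for 12401 genes with at least 5 in 2 or more libraries. Within macrophages, edgeR 4.0.16 quasi-likelihood tests (TMM, filterByExpr) were run for 9617 genes. Adjusted p is Benjamini-Hochberg over all genes of the fit, with a threshold of 0.05; all tests were two-sided. Every fit used all groups of its cell type, for fibroblasts including 3 mono-cultured libraries in DMEM that served only to estimate the spread. The scripts were tested on simulated data, in R 4.3.3 and Python 3.11.15. Alternatives were DESeq2 1.42.0, other scalings, filters and pseudocounts, the replicate block and leaving out each library.

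Same-numbered libraries deviated together in macrophages in 4T1 CM and DMEM (correlations 0.268, 0.182 and 0.458), but not in every pair of the other comparisons. No source says which libraries came from separate animals or wells for macrophages, so p-values there measure only the spread between these samples, which may be technical. The partner share is the median over 24 fibroblast or 23 macrophage markers of the level in percent of the partner's mean in the co-cultures of the same medium. Depth was 1945980 to 7632366 reads in fibroblasts and 1434695 to 4140985 reads in macrophages; 3 reads equal 0.608 to 0.808 CPM in the 4T1 CM co-cultured fibroblasts and 0.929 to 2.09 CPM in the macrophages.

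The members and lists were chosen with earlier results of these data known. Genes were named by a rule: the 4 highest sided members per list and side, the members of sided and of 13 stated pairs, those whose side changed, those nearest the limit, the 4 largest changes each way per test, and those of at least 50 CPM in 1 table only. Genes named beside them (neighbours in a cluster, complete short lists and the test values of printed members) were chosen after their values were seen. Some members of the lists are counted but not reported here by name.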

Additional observations from a re-analysis of the deposited data

Results flagged for a closer look

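A sample was set apart when its gap to the nearest of its group was larger than Dixon's 95% critical value of the group's range, which chance meets in about 1 in 20 groups. Of 126 groups (printed members and the fibroblast share), 18 (14.3%) held such a sample, and 10 of the 18 were macrophage replicate 3 of the 4T1 CM co-cultures, whose fibroblast marker share was 19.4%. That library was the highest of its group for Cxcl12 (98.4 CPM), Csf1 (349.6 CPM), Rarres2 (1356 CPM), Il1rl1 (4.15 CPM), Axl (193 CPM), Osmr (56.9 CPM), Fgf7 (30.2 CPM), Mmp3 (249 CPM) and Timp1 (1151 CPM), all higher in fibroblasts. It was the lowest for Mmp8 (402 CPM). The part of the fibroblast share in these levels was not tested.

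Among mono-cultured macrophages, replicate 3 stood apart for Cxcl12 (2.01 CPM), Ccl11 (0.287 CPM) and Il1rl1 (0.287 CPM), where the others had 0 reads. Replicate 4 stood apart for Axl (122 CPM) and replicate 1 for Timp1 (6.01 CPM). Among co-cultured fibroblasts, replicate 2 stood apart for Cxcr4 (0.608 CPM) and Il1b (1.22 CPM), where the others had 0 reads, and replicate 1 for Ppbp (0 CPM). The flags of Cxcr4 and Il1b, and those of Cxcl12, Ccl11 and Il1rl1 in mono-cultured macrophages, were thus fixed by the 0 reads of the other libraries.

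For Il33 every co-culture library lay on one side of the mono-cultures in fibroblasts and on the opposite side in macrophages. Co-culture minus mono-culture, in mean CPM, was -27.0 in fibroblasts and 1.91 in macrophages. The fibroblast change rests on 2 mono-culture libraries. The macrophage change is near the level of 3 reads, 0.929 to 2.09 CPM in the co-cultured macrophages. Il33 there had a median ratio of 1.06 to the level that the fibroblast share alone would give. The part of that share was not tested. The difference between the cell types was not tested.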

How the results depend on the processing

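With a ratio limit of 4, 1080 shared genes were fibroblast-sided and 627 macrophage-sided in the 4T1 CM co-cultures, and 661 in mono-culture and 626 in the DMEM co-cultures were macrophage-sided. With a limit of 16, 218 shared genes and 20 list members were fibroblast-sided, and 271 and 57 macrophage-sided. At the limit of 8 the members were 76 and 64, so their balance depended on the limit. The mean share was 7.59% for fibroblast markers in macrophages and 0.212% for the reverse, and its part was not tested. With a minimum of 50 CPM, 389 shared genes were fibroblast-sided and 273 macrophage-sided. Scaling by TMM gave 520 fibroblast-sided and 457 macrophage-sided shared genes, with 63 and 69 list members. Subtracting the partner share gave 929 and 390 shared genes, with 103 and 64 list members. In fibroblasts the 3 genes called between co-culture and mono-culture became 5 with a pseudocount of 0.5, and 0 with a pseudocount of 5, quantile normalization, edgeR on recovered reads, only the compared groups, or the replicate block. Leaving out a library gave 0 to 297 calls, 297 of them without mono-culture replicate 2. For Cxcl12 in that comparison the log2 change was 0.076 with edgeR on recovered reads, and -0.46 to 0.23 when a library was left out, 0.23 without co-culture replicate 2. The 725 calls of 4T1 CM against DMEM in fibroblasts became 437 with only the compared groups and 258 to 818 when a library was left out; 258 were without DMEM replicate 1 and 470 without 4T1 CM replicate 1. In macrophages the 1000 calls of the medium became 503 to 955, 503 without DMEM replicate 1 and 599 without DMEM replicate 2. The replicate block gave 682 calls for the medium in fibroblasts, 1172 for the medium in macrophages (906 shared with the 1000) and 2569 for co-culture in macrophages; it changed no count there by over 1.5 times. Serpinb2 in fibroblasts lost its call for the medium without DMEM replicate 1 (adjusted p = 0.0715) or 3 (adjusted p = 0.0519). The cause of these changes was not tested. Low reads limit the macrophages most: 3 reads equal up to 2.09 CPM.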
